A study of Mus musculus with 9 samples.

Results

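The small leucine-rich proteoglycans are secreted matrix proteins whose core is a row of leucine-rich repeats. The 9 members described here are decorin (Dcn), biglycan (Bgn), asporin (Aspn), fibromodulin (Fmod), lumican (Lum), keratocan (Kera), osteomodulin (Omd), prolargin (Prelp) and osteoglycin (Ogn). They were chosen by gene symbol, as all probe sets annotated to those symbols on the Affymetrix Mouse 430 2.0 array, and they are 9 of the 18193 genes measured, with 20 of the 45101 probe sets.

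The series profiled RNA of mouse embryos at embryonic day 16.5 from the temporomandibular joint, where the jaw meets the skull. It held 3 arrays of the condyle (the rounded end of the mandible), 3 of the fossa (the hollow of the temporal bone that receives it) and 3 of the whole body. No strain, genotype, allele or agent is given in the labels. A laser capture of frozen tissue is entered as the treatment of all 9 samples, and the design text calls them biological triplicates. Which embryo each array came from is not given, so p-values reflect how much these arrays vary, which may be technical in part.

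Most members of this family bind collagen fibrils and help set how thick and how regular the fibrils become. Decorin, biglycan and asporin form the first class, in which decorin and biglycan carry chondroitin or dermatan sulfate chains and asporin carries an acidic aspartate stretch instead. Fibromodulin, lumican, keratocan, osteomodulin and prolargin form the second class, several of which carry keratan sulfate chains or sulfated tyrosines, and osteoglycin belongs to the third. Biglycan is abundant in bone and cartilage, fibromodulin in cartilage and tendon, lumican and keratocan in the cornea, osteomodulin in bone, and prolargin in cartilage and basement membranes.

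Levels are deposited intensities on the log2 scale, and a difference of 1 is a doubling of intensity. Each gene is shown by its probe set with the highest mean, and levels are not set against each other between genes because probe sets differ in brightness per transcript. Each array's background limit was taken as its brightest of 27 control probe sets for bacterial transcripts, and this lay between 2.87 and 3.52 on the log2 scale. A probe set at or under that limit is called not above background. Differences were tested with limma over all genes, and a call means a Benjamini-Hochberg adjusted p under 0.05. The comparisons of condyle and of fossa with the whole body share the 3 whole body arrays.

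The captured tissues were checked against marker lists. The cartilage markers (14 measured, among them Acan, Col2a1 and Sox9) summed to between 11476 and 22626 intensity units on the condyle arrays, 9896 and 29241 on the fossa arrays, and 1268 and 1312 on the whole body arrays. Against the whole body, 10 of these 14 were called higher in condyle and 10 in fossa, beside 9.34% and 3.99% of all genes. The bone markers (8 measured) summed to between 5173 and 23726 in condyle, 7392 and 26631 in fossa, and 1888 and 2371 in whole body. Of these 8, only 1 was called higher in condyle (Col1a1) and 3 in fossa (Col1a1, Dmp1 and Mepe), beside the same shares of all genes. The tendon, periosteum and fibroblast markers (11 measured) summed to between 10684 and 21840 in condyle, 13375 and 16494 in fossa, and 10989 and 13550 in whole body. Tnmd was the only one of them called against the whole body, lower in both joint tissues. Among these 11, the tendon transcription factor Scx was not above background in condyle or whole body and was above it on 2 of 3 fossa arrays. Transthyretin (Ttr), made in liver, yolk sac and choroid plexus, stood apart on condyle array 3 and fossa array 3, with log2 intensities of 9.81, 11.77 and 15.23 in condyle, 5.58, 4.24 and 15.06 in fossa, and 14.88, 14.69 and 14.77 in whole body. The other 6 liver markers measured, among them Afp and Alb, did not: they summed to between 53 and 71 intensity units in condyle, 37 and 47 in fossa, and 43314 and 49616 in whole body. RNA quality was read as the 3 prime minus 5 prime log2 difference of the Gapdh control, where a higher value means stronger bias to the 3 prime end. The difference was 5.33, 5.64 and 6.86 in condyle, 3.69, 4.97 and 5.31 in fossa, and 6.52, 5.67 and 5.34 in whole body, so every array had this bias. Fossa array 1 had the lowest value, as it did for Actb (4.79, against 5.74 to 6.71 on the other arrays). It also had the highest background limit (3.52), and whether its lower values reflect its RNA was not tested. Of all probe sets, 46.7%, 45.4% and 46.9% lay above background on the condyle arrays, 30.3%, 43.8% and 40.7% on the fossa arrays, and 45.9%, 42.8% and 37.4% on the whole body arrays.

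The members moved in different directions. Biglycan was higher in both joint tissues than in the whole body, and prolargin was higher in the condyle than in either the fossa or the whole body. Osteoglycin was lower in both joint tissues, asporin was lower in the condyle and keratocan in the fossa. The osteoglycin, asporin and keratocan calls were lost when condyle array 3 and fossa array 3, which had high Ttr, were left out together, with differences of -2.01 and -2.17 for osteoglycin, -1.18 for asporin and -3.10 for keratocan. On all arrays these were -2.52, -2.10, -1.60 and -2.94. Fewer arrays also lowered the calls over all genes, from 2398 to 1191 in condyle and from 3559 to 2049 in fossa against whole body. Each of these member calls was also lost without whole body array 2 alone, and without whole body array 3 alone. Decorin, lumican, fibromodulin and osteomodulin did not pass the test in any of the 3 comparisons.

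The regions before the start sites of the genes that passed the test in the condyle are shown as sequence, since these are the members on which the comparison of condyle with whole body turns. They are the 250 bases upstream of the start, 5′ to 3′ on the strand of the gene, from RefSeq on mouse build GRCm38.p6. Capitals mark matches to TATAAA or its other strand TTTATA, and to GGGCGG or its other strand CCGCCC. Biglycan and prolargin, higher in condyle, come first, and osteoglycin and asporin, lower in condyle, follow.
Bgn (chrX:73483351-73483600, plus strand): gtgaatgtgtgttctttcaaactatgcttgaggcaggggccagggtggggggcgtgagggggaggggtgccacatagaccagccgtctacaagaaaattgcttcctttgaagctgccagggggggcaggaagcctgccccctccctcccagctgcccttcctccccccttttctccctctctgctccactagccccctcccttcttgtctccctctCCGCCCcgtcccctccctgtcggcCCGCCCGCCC
Prelp (chr1:133921402-133921651, minus strand): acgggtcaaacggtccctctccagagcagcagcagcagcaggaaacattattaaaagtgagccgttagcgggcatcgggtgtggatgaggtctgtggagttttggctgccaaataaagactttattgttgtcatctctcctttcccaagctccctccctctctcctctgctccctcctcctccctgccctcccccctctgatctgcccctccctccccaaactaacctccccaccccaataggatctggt
Ogn (chr13:49607765-49608014, plus strand): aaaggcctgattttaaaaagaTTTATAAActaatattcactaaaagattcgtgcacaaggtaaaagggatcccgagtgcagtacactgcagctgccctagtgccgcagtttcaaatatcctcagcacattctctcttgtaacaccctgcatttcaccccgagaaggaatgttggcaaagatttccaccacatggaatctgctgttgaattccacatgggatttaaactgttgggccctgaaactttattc
Aspn (chr13:49544193-49544442, plus strand): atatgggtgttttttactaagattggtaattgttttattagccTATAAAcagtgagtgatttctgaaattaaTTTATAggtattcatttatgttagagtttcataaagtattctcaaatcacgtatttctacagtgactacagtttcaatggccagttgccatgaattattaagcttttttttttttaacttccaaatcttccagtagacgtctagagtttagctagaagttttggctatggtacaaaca
The biglycan region was 64.4% G and C, above 81.6% of the 32851 mouse promoters in the table, and the prolargin region was 55.6% G and C, above 60.1% of them. The osteoglycin region was 42.0% G and C and the asporin region 30.0%, which were above 15.9% and 1.5% of promoters. The median promoter was 52.4% G and C. Among members not called in condyle against whole body, the region was 51.2% G and C for Fmod, 42.4% for Kera and 38.4% for Omd. Whether G and C content goes with the calls was not tested.

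Biglycan held 3 GC box letters (GGGCGG, read on both strands), starting 34, 10 and 6 bases before the start site, the last pair of which overlap. Such letters stand in 32.7% of all promoters of this length. Osteoglycin held 2 matches to TATAAA, at 229 and 227 bases before the start, which overlap on opposite strands, and asporin held 2, at 207 and 178 bases. TATAAA or its other strand stands in 12.4% of promoters. Of the motifs searched, the E box letters CANNTG stand in 66.2% of promoters and the Runx core letters TGTGGT in 14.0%. Osteoglycin had 3 E boxes and 1 Runx core, biglycan and asporin had 1 E box each and no Runx core, and prolargin had none of the 4 motifs. Promoters were found for 7 of the 9 members, all but decorin and lumican. A match here is a description of letters and was not tested as a binding site.

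Among the 9 members, 2 were higher and 2 lower in condyle than in whole body, while 9.34% of all genes were higher and 3.84% were lower in that comparison. In fossa against whole body 1 member was higher and 2 were lower, beside 3.99% of all genes higher and 15.6% lower. In condyle against fossa 1 member was higher and 0 were lower, beside 16.8% of all genes higher and 2.13% lower. The median difference over the 9 members was -0.52 in condyle against whole body, -0.41 in fossa against whole body and 0.07 in condyle against fossa. The medians over all genes were -0.03, -0.11 and 0.21 in the same order. A count of 1 or 2 of 9 lies near several of those shares, and no member count was tested against them. Quantile normalization brought the median of all genes in condyle against fossa to -0.01, against 0.21 as deposited.

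**Figure D1:**
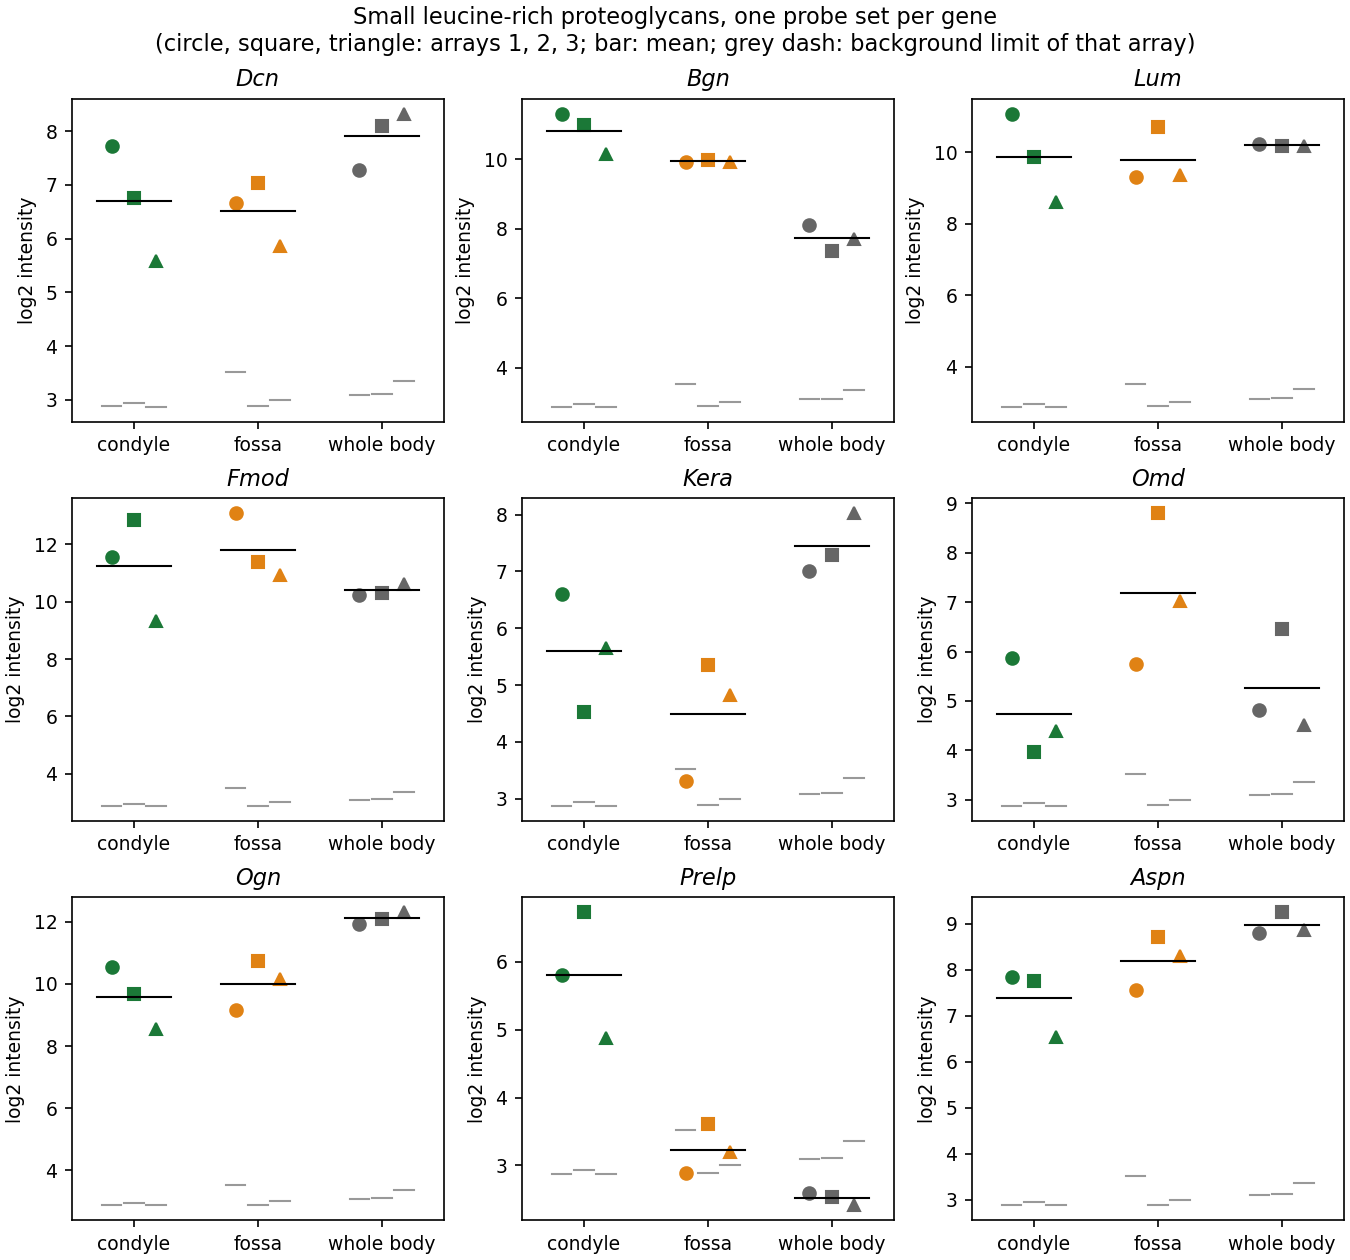
Log2 intensity of each member's brightest probe set on every array, with condyle (green) left, fossa (orange) in the middle and whole body (grey) on the right of each panel. Circle, square and triangle are arrays 1, 2 and 3, the bar is the group mean and the grey dash is that array's background limit. Bgn lies above all whole body arrays in both joint tissues, Ogn lies below them in both, and Prelp is well above the limit in condyle only.

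Among the first class, biglycan gave the clearest result. Bgn (1416405_at) had log2 intensities of 11.32, 11.00 and 10.15 in condyle, 9.93, 9.97 and 9.93 in fossa, and 8.11, 7.35 and 7.72 in whole body. Every joint array was above every whole body array, and condyle array 3, the lowest of its group, still lay above the 3 fossa arrays. The difference from whole body was 3.09 on the log2 scale in condyle (SE 0.31, 8.54-fold, adjusted p = 0.00185) and 2.21 in fossa (SE 0.31, 4.64-fold, adjusted p = 0.00395). Both calls were kept when any one of the 9 arrays was left out.

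Biglycan was also 0.88 higher on the log2 scale in condyle than in fossa, with a 95% interval from 0.14 to 1.62 and an adjusted p of 0.0955, which did not pass. Without condyle array 3 this difference was 1.21 with an adjusted p of 0.0235, and after quantile normalization it was 0.24. Against whole body, the other probe sets of biglycan gave smaller differences of the same direction. Bgn 1437889_x_at differed from whole body by 1.75 in condyle (adjusted p = 0.0087 in the probe set fit) and 0.97 in fossa (0.0319), and Bgn 1448323_a_at by 2.26 (0.0119) and 1.32 (0.0362). Their fossa calls held in only 3 and 2 of the 9 fits that each left out an array, while their condyle calls held in all 9. The mean over the 3 probe sets differed from whole body by 2.37 in condyle and by 1.50 in fossa.

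Decorin, the member best known for binding type I collagen fibrils and TGF-beta, was not called. Dcn (1449368_at) had log2 intensities of 7.73, 6.76 and 5.59 in condyle, 6.66, 7.04 and 5.86 in fossa, and 7.28, 8.10 and 8.33 in whole body. All fossa arrays lay below all whole body arrays, while condyle array 1 lay within the whole body range. The difference from whole body was -1.21 in condyle (SE 0.59, adjusted p = 0.228, 95% interval -2.59 to 0.17) and -1.38 in fossa (SE 0.59, adjusted p = 0.15). A second, dimmer probe set, Dcn 1441506_at, lay between 3.32 and 4.66 on all arrays and differed from whole body by 0.43 in condyle and by 0.18 in fossa, neither of which was called, so the 2 probe sets did not share a direction.

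Asporin, a relative that binds collagen and TGF-beta, was lower in the condyle. Aspn (1448421_s_at) had log2 intensities of 7.84, 7.75 and 6.53 in condyle, 7.55, 8.70 and 8.30 in fossa, and 8.80, 9.25 and 8.86 in whole body. All arrays of both joint tissues lay below all whole body arrays. The difference was -1.60 in condyle (SE 0.42, 3.03-fold lower, adjusted p = 0.0497) and -0.79 in fossa (SE 0.42, adjusted p = 0.242). The condyle call sat at the threshold: among the fits that each left out 1 of the 9 arrays, it was kept only without fossa array 1 (adjusted p = 0.0402), and its adjusted p reached 0.139 without whole body array 2. Without condyle array 3 and fossa array 3 together the condyle difference was -1.18 (adjusted p = 0.145).

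The other asporin probe set showed a difference between the joint tissues. Aspn 1416652_at had log2 intensities of 5.95, 5.81 and 4.49 in condyle, 6.91, 7.61 and 6.84 in fossa, and 6.85, 7.24 and 7.26 in whole body. The 3 condyle arrays lay below all fossa arrays, and the fossa and whole body arrays overlapped. It was lower in condyle than in fossa, with a difference of -1.70 (SE 0.41, adjusted p = 0.0343 in the probe set fit), and its difference between condyle and whole body was also -1.70, with an adjusted p of 0.0613. The call between condyle and fossa held in only 3 of the 9 fits that each left out an array (those without condyle array 1, condyle array 3 or whole body array 1), and it was lost with a common floor at the highest background limit (adjusted p = 0.111), with only the compared groups (0.0734) and without condyle array 3 and fossa array 3 (0.0585). In the same fit the brighter asporin probe set differed by -0.81 between condyle and fossa (adjusted p = 0.252) and by -1.60 between condyle and whole body (adjusted p = 0.0792).

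In the second class, prolargin was the only member called between condyle and fossa. Prelp (1416321_s_at) had log2 intensities of 5.80, 6.73 and 4.88 in condyle, 2.89, 3.61 and 3.20 in fossa, and 2.60, 2.53 and 2.41 in whole body. All 3 condyle arrays and 2 of 3 fossa arrays exceeded their background limits, and Prelp was not above background on any whole body array. The condyle arrays did not overlap with either other group. The measured difference between condyle and fossa was 2.57 (SE 0.43, at least 5.12-fold higher, adjusted p = 0.00956). Against whole body, condyle was at least 6.13-fold higher (measured difference 3.28, SE 0.43, adjusted p = 0.00467), and fossa, at least 1.04-fold higher, was not called (adjusted p = 0.296). These bounds use each array's own limit. With 1 common floor, at the highest limit of the 9 arrays, the differences were smaller, 2.28 against whole body (adjusted p = 0.0244) and 2.25 against fossa (adjusted p = 0.0265).

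The calls of prolargin in condyle against fossa and against whole body held in all 9 gene fits that each left out an array. In the probe set fit with the common floor both missed the threshold, with adjusted p of 0.053 against whole body and 0.0503 against fossa. Between condyle and fossa the gene fits gave 2.10 to 3.03, with adjusted p of 0.00576 to 0.0328. The calls rest on 1 of the 2 probe sets, whose suffix (_s_at) marks probes that can be shared between transcripts. Prelp 1416322_at had log2 intensities of 3.61, 4.23 and 2.40 in condyle, 2.48, 2.41 and 2.51 in fossa, and 2.52, 2.47 and 2.42 in whole body, and it was above background on 2 condyle arrays and on none of the other groups. Its difference between condyle and fossa was 0.95 (adjusted p = 0.172) and between condyle and whole body 0.94 (adjusted p = 0.216). The mean of both probe sets differed by 2.11 between condyle and whole body (adjusted p = 0.0185) and by 1.76 between condyle and fossa (adjusted p = 0.0249).

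Fibromodulin, which binds collagen and carries sulfated tyrosines, had the widest spread of the members among the condyle arrays (SD 1.78). Fmod (1456084_x_at) had log2 intensities of 11.56, 12.85 and 9.33 in condyle, 13.10, 11.38 and 10.94 in fossa, and 10.25, 10.30 and 10.63 in whole body. All fossa arrays lay above all whole body arrays, and condyle array 3 lay below them while condyle arrays 1 and 2 lay above. The difference was 0.86 in condyle (SE 0.92, adjusted p = 0.537) and 1.41 in fossa (SE 0.92, adjusted p = 0.332). All 6 Fmod probe sets were above 0 against whole body in both tissues, from 0.61 to 2.14 in condyle and from 0.65 to 2.13 in fossa, and none was called. Between condyle and fossa they ran from -0.56 to 1.04. Of these 6, 5 carry the suffix for probes that can also match other transcripts (_x_at), as does Bgn 1437889_x_at. The shown probe sets of Prelp and Aspn carry the suffix _s_at, for probes that can be shared between transcripts.

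Lumican, a regulator of fibril spacing in cornea and skin, was close to the whole body level. Lum (1423607_at) had log2 intensities of 11.08, 9.87 and 8.61 in condyle, 9.31, 10.69 and 9.35 in fossa, and 10.23, 10.16 and 10.18 in whole body. The joint groups spread on both sides of the narrow whole body range. The difference was -0.34 in condyle (adjusted p = 0.72, 95% interval -1.84 to 1.16) and -0.41 in fossa (adjusted p = 0.699, 95% interval -1.91 to 1.09). Under quantile normalization the fossa value turned to 0.18.

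Keratocan, the keratan sulfate protein of the cornea, was lower in the fossa. Kera (1418063_at) had log2 intensities of 6.60, 4.52 and 5.66 in condyle, 3.32, 5.35 and 4.83 in fossa, and 7.01, 7.28 and 8.03 in whole body. No joint array reached the lowest whole body array. Keratocan was at least 7.31-fold lower in fossa (measured difference -2.94, SE 0.68, adjusted p = 0.0245), with 2 of 3 fossa arrays above background. In condyle the difference was -1.84 (SE 0.68, adjusted p = 0.131). Eye markers (6 measured, from lens and cornea) summed to between 282 and 424 intensity units in condyle and 232 and 454 in fossa. In whole body they summed to between 2031 and 3126. Only Cryab, Cryba1 and Crygf were above background in whole body, and these 3 were lower in both joint tissues. Cryab was the brightest of them in the joint, with mean log2 intensities of 8.32 in condyle and 8.19 in fossa. Aldh3a1 of the same list was not above background in whole body and differed by -0.09 in fossa (adjusted p = 0.602). The part of the eye markers in the keratocan result was not tested. The fossa call was lost without fossa array 1 (adjusted p = 0.053), fossa array 3 (0.0585), whole body array 2 (0.0623) or whole body array 3 (0.0717). Without condyle array 3 and fossa array 3 together it was -3.10 with an adjusted p of 0.0937.

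Osteomodulin, a bone matrix member also called osteoadherin, had its highest mean in the fossa (7.19 on the log2 scale). Omd (1418745_at) had log2 intensities of 5.88, 3.97 and 4.39 in condyle, 5.75, 8.81 and 7.02 in fossa, and 4.82, 6.46 and 4.52 in whole body. The groups overlapped, since condyle array 1 was above fossa array 1 and whole body array 2 was above it too. The difference was 1.92 between fossa and whole body (SE 0.91, adjusted p = 0.193) and -2.44 between condyle and fossa (SE 0.91, adjusted p = 0.109, 95% interval -4.60 to -0.29). Against whole body the condyle differed by -0.52 (SE 0.91, adjusted p = 0.701).

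Osteoglycin, the third-class member, was lower in both joint tissues. Ogn (1419663_at) had log2 intensities of 10.53, 9.68 and 8.56 in condyle, 9.15, 10.73 and 10.15 in fossa, and 11.93, 12.10 and 12.31 in whole body. Every joint array lay below every whole body array. The difference was -2.52 in condyle (SE 0.56, 5.75-fold lower, adjusted p = 0.028) and -2.10 in fossa (SE 0.56, 4.30-fold lower, adjusted p = 0.0387). The second probe set gave larger differences. Ogn 1419662_at had log2 intensities of 4.94, 5.19 and 4.18 in condyle, 3.83, 6.10 and 5.11 in fossa, and 7.70, 7.99 and 8.56 in whole body, and it differed from whole body by -3.31 in condyle (adjusted p = 0.022) and -3.07 in fossa (adjusted p = 0.0138).

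Osteoglycin kept its direction whenever an array was left out, but its calls did not all hold. In condyle the call was lost without condyle array 2 or 3 or any of the 3 whole body arrays, with adjusted p up to 0.0774. In fossa it was lost without condyle array 2, fossa array 1 or 3 or any whole body array, with adjusted p up to 0.097. The fossa call was also lost under quantile normalization (-1.58, adjusted p = 0.103), median centring (-1.96, adjusted p = 0.0518) and the common floor (adjusted p = 0.0816). Without condyle array 3 and fossa array 3 together the differences were -2.01 in condyle (adjusted p = 0.101) and -2.17 in fossa (adjusted p = 0.0645). In the probe set fit, the fossa call of Ogn 1419662_at held in all 9 fits that each left out an array and in 6 of 8 other settings. It was lost with the common floor (adjusted p = 0.0534) and without condyle array 3 and fossa array 3 together (0.0652). The condyle call of that probe set held in 3 of the 9 fits and 5 of the 8 settings. Fewer cells of a type that makes osteoglycin and less osteoglycin RNA per cell cannot be told apart in such tissue samples, which holds for each gene here.

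**Figure D2:**
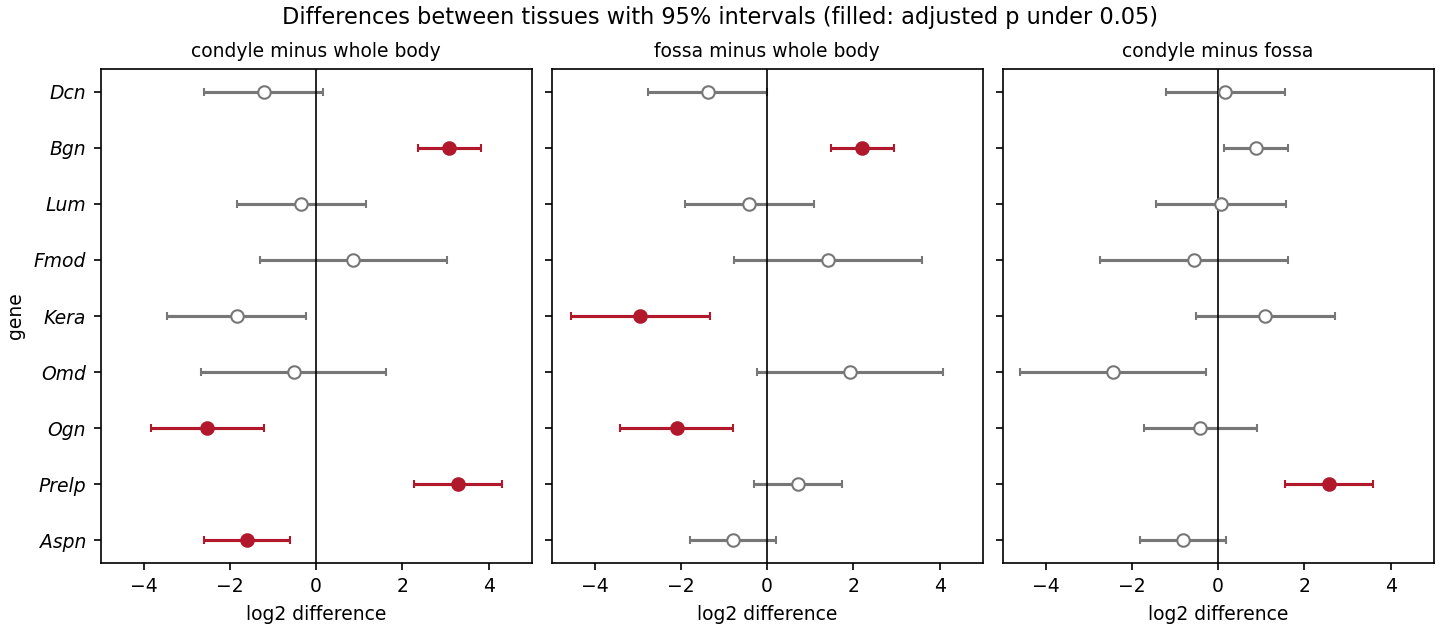
Log2 difference of each member in condyle against whole body, fossa against whole body and condyle against fossa, with bars for the 95% interval and filled markers for adjusted p under 0.05. Bgn is filled in both comparisons with whole body, at 3.09 and 2.21, and Prelp is the single filled member between condyle and fossa, at 2.57.

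The call counts were also taken over the 20 probe sets, fitted with all 45037 that are not array controls. In condyle against whole body 4 were higher and 2 lower, beside 4.21% and 1.99% of all probe sets. In fossa against whole body 3 were higher and 3 lower, beside 3.69% and 13.1%. In condyle against fossa 1 was higher and 1 lower, beside 12% and 4.02%. These probe sets belonged to few genes: the higher ones against whole body in fossa were the 3 of Bgn, the condyle set added 1 of Prelp, and the lower ones were the 2 of Ogn and, in fossa, the 1 of Kera. Between condyle and fossa the higher one was of Prelp and the lower one of Aspn.

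**Figure D3:**
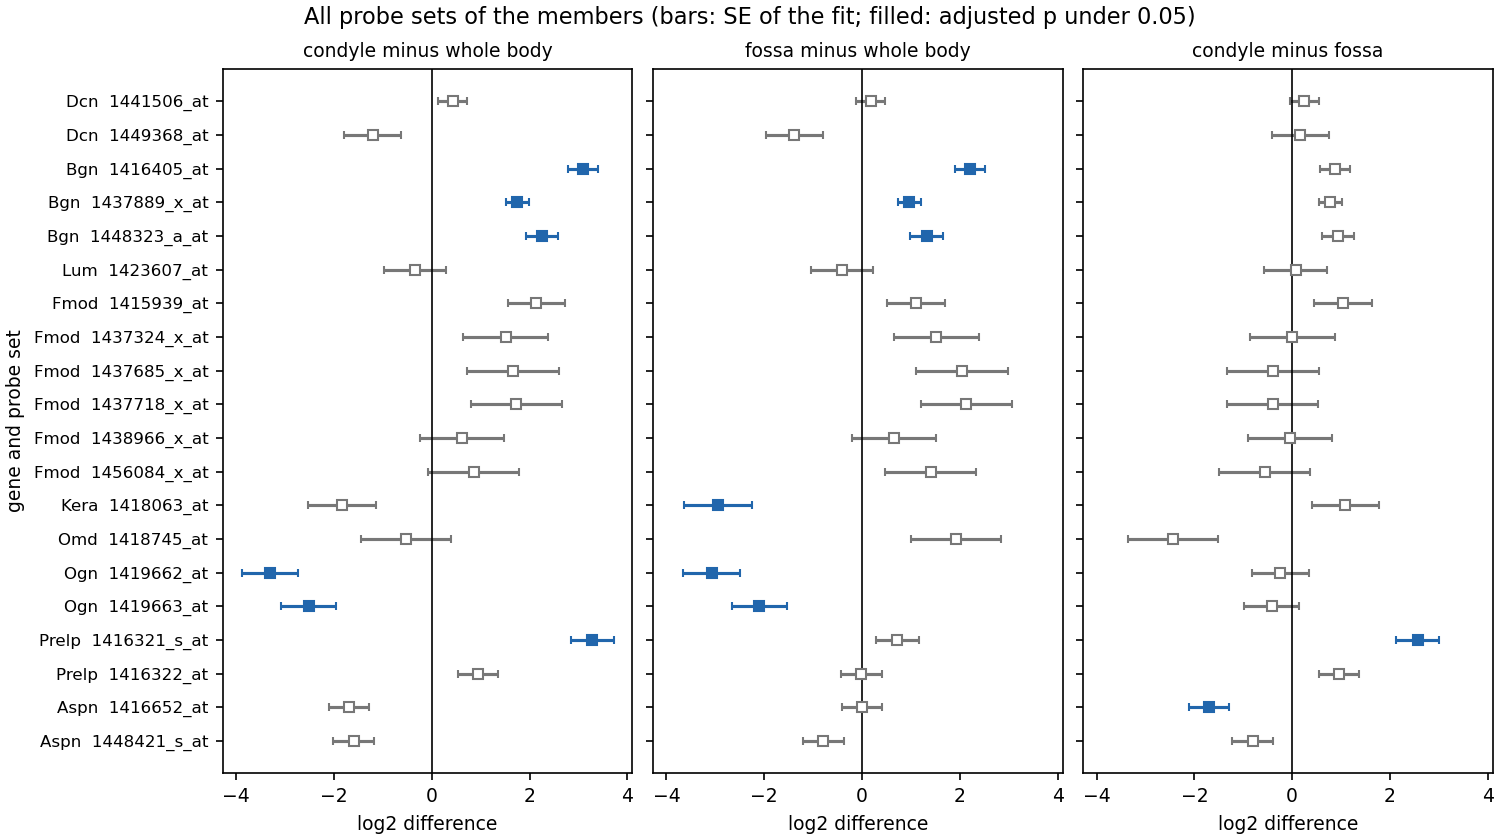
Log2 difference of all 20 probe sets of the 9 members in the 3 comparisons, with bars for the standard error of the fit and filled markers for adjusted p under 0.05. The 3 Bgn probe sets lie on one side of 0 and the 2 Ogn probe sets on the other in both comparisons with whole body, whereas the 2 Prelp probe sets differ in size and the 2 Dcn probe sets in sign.

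Several members lie next to each other in the genome. In the RefSeq gene order of assembly GRCm38.p6, Dcn, Lum, Kera and the related gene Epyc follow one another, as do Ecm2, Aspn, Omd and Ogn, and Optc, Prelp and Fmod, while Bgn lies between Haus7 and Atp2b3. No difference between neighbours was tested. In the first row the differences from whole body were -1.21 for Dcn, -0.34 for Lum and -1.84 for Kera in condyle, and -1.38, -0.41 and -2.94 in fossa, where Kera alone was called. In the second they were -1.60 for Aspn, -0.52 for Omd and -2.52 for Ogn in condyle, and -0.79, 1.92 and -2.10 in fossa. In fossa Omd was above 0, and Lum turned to 0.18 there under quantile normalization. The medians over all genes were -0.03 in condyle and -0.11 in fossa. These values are of the shown probe sets, and others did not all share their direction. Dcn 1441506_at differed from whole body by 0.43 in condyle and 0.18 in fossa, and Aspn 1416652_at by -1.70 and 0. Between condyle and fossa Prelp differed by 2.57 and its neighbour Fmod by -0.56, which was not called.

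Replicates of the joint tissues spread more widely than whole body replicates for most members, and no test of that spread was made. The SDs of the 9 members ran from 0.60 to 1.78 in condyle, 0.02 to 1.54 in fossa and 0.03 to 1.04 in whole body, on the log2 scale. Condyle array 3 was the lowest of its group for 7 of 9 members, beside 35.4% of all genes, and the median deviation of the members from their group means was -0.92. Condyle array 1 was the highest for 7 of 9, with a median deviation of 0.94. On that array 1 of 9 members lay below the group mean, beside 45.9% of all genes. Fossa array 2 was the highest for 8 of 9, with a median deviation of 0.52, and 1 of 9 members lay below the group mean there, beside 57.6% of all genes. Fossa array 1 was the lowest for 7 of 9, beside 28.4% of all genes. Fossa array 1 is also the array with the lowest Gapdh and Actb values above and the highest background limit (3.52). The part of these in the low values was not tested. Fibromodulin ran otherwise: it was highest on condyle array 2 and fossa array 1, with deviations of 1.60 and 1.30.

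Some marker lists deviated on the same arrays and others did not. The mean log2 level of the bone markers deviated by 1.45, -0.95 and -0.50 on condyle arrays 1, 2 and 3 and by -1.13, 0.92 and 0.20 on the fossa arrays. Osteomodulin deviated by 1.13, -0.78 and -0.35 in condyle and by -1.45, 1.62 and -0.17 in fossa. Both were thus highest on condyle array 1 and fossa array 2, but this was not particular to bone markers. The macrophage and leukocyte markers had mean log2 levels of 6.63, 4.54 and 4.63 in condyle and 5.48, 5.78 and 5.53 in fossa. The neuron and glia markers had 6.97, 4.52 and 6.92 in condyle and 4.69, 7.15 and 5.48 in fossa. These lists were highest on the same arrays. The fibrous tissue markers deviated by 0.69, -0.10 and -0.59 in condyle and -0.23, 0.32 and -0.10 in fossa, and the cartilage markers by 0.17, 0.47 and -0.65 in condyle and 0.01, 0.83 and -0.85 in fossa. Muscle markers deviated by 0.14, -1.10 and 0.96 in condyle and -0.90, 0.83 and 0.08 in fossa, so they were highest on condyle array 3, where most members were lowest. The mean of the 6 liver markers other than Ttr deviated by no more than 0.18 on any joint array. Single genes could deviate more, such as Afp with log2 intensities of 5.04, 3.37 and 3.37 in condyle. Apoa1 and Fgb were not above background on any joint array, which leaves little room to deviate downward. Leaving out condyle array 3 and fossa array 3, which had high Ttr, left Bgn and Prelp called in condyle against whole body (3.43 and 3.74 on the log2 scale), Bgn in fossa against whole body (2.22) and Prelp in condyle against fossa (3.01). Epithelial markers summed to 189 on fossa array 2, against 2068 to 5250 in condyle, 3215 and 3230 on the other fossa arrays, and 954 to 1134 in whole body. The part of these markers in the member results was not tested.

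**Figure D4:**
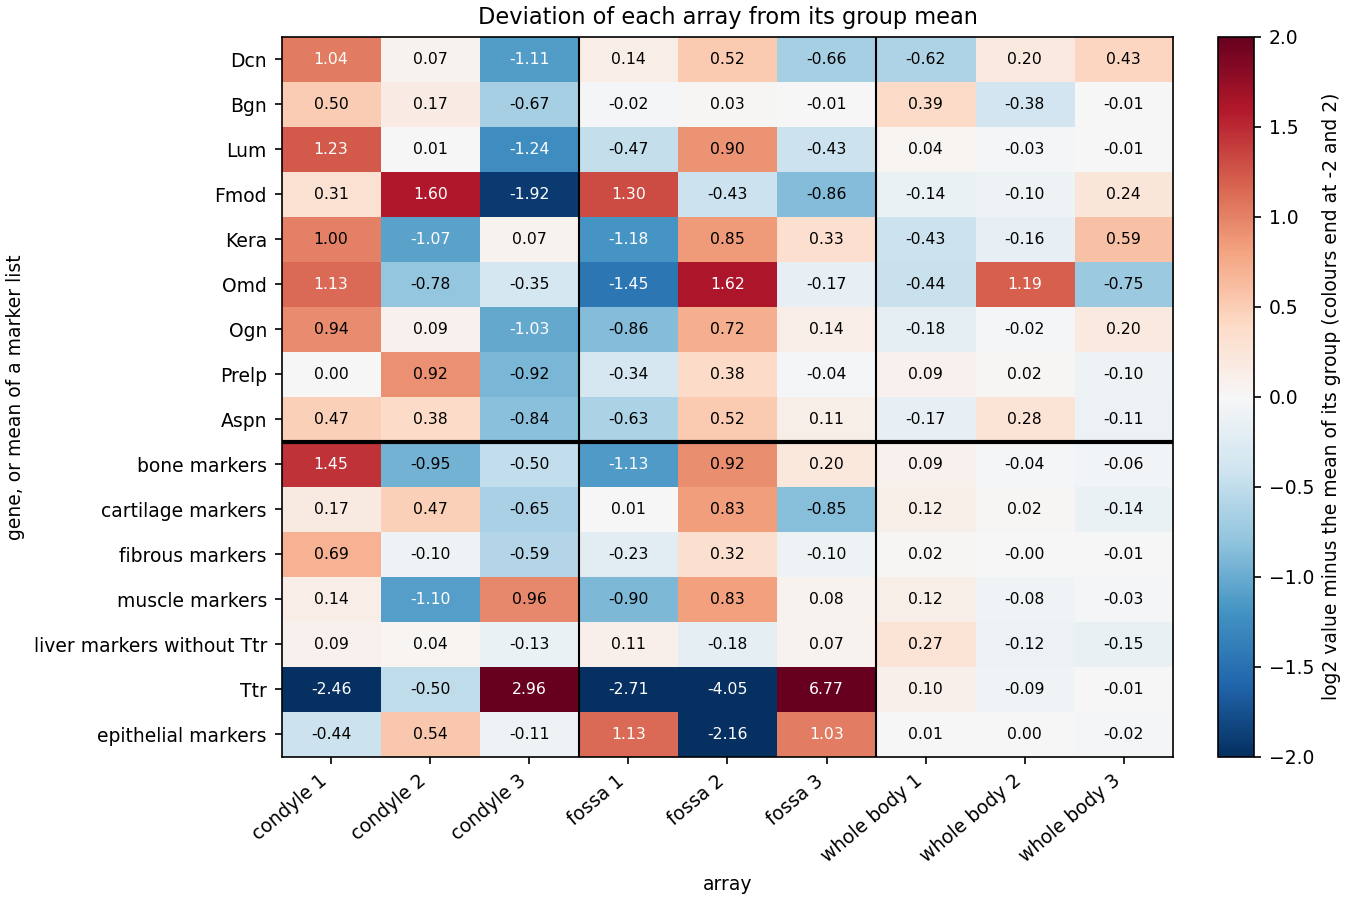
Deviation of each member's log2 intensity from its group mean on the 9 arrays, with the mean deviation of marker lists and of Ttr in the rows below and with condyle left, fossa in the middle and whole body on the right. Red is above and blue below the group mean. Most members are low on condyle array 3 and high on condyle array 1 and fossa array 2, and Fmod runs otherwise with 1.60 on condyle array 2 and -1.92 on condyle array 3.

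Other proteins of the superfamily were measured for 7 of 9 listed genes. Chondroadherin (Chad), a cartilage protein that binds collagen and integrins, was at least 4.93-fold higher in condyle (adjusted p = 0.0179) and at least 6.01-fold higher in fossa (adjusted p = 0.00855) than in whole body, where it was not above background. Its log2 intensities were 5.29, 6.20 and 4.97 in condyle, 6.50, 6.11 and 4.70 in fossa, and 2.95, 2.91 and 2.88 in whole body. Chadl, its close relative, was 1.92 higher in condyle (SE 0.36, adjusted p = 0.0156) and 1.38 higher in fossa (SE 0.36, adjusted p = 0.036). Epiphycan (Epyc), the cartilage member next to Kera, differed by 2.31 in condyle (adjusted p = 0.162) and 2.51 in fossa (adjusted p = 0.109). In each comparison with whole body 2 of 7 were higher and none lower, and none was called between condyle and fossa, where the median was -0.20. Of all genes, 9.34% were higher and 3.84% lower in condyle against whole body, and 3.99% and 15.6% in fossa against whole body. Between condyle and fossa the shares were 16.8% and 2.13%. The same shares stand beside the lists below, and no list count was tested against them. The medians against whole body were -0.04 in condyle and 0.55 in fossa. Under quantile normalization Chadl was no longer called in condyle, where Chad alone passed, and both passed in fossa. Without condyle array 3 and fossa array 3, Epyc joined the calls, which made 3 of 7 in each comparison.

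The collagens that the members bind were mostly higher in the joint. Of 13, 8 were higher in condyle and 8 in fossa than in whole body, beside 9.34% and 3.99% of all genes. None was lower, and the medians were 1.76 and 1.62. Col2a1, which makes the main fibrils of cartilage, rose at least 37.9-fold in condyle (adjusted p = 0.00783) and at least 38.4-fold in fossa (adjusted p = 0.00501). Col9a1, which sits on the surface of those fibrils, was 3.80 higher in condyle (SE 0.53, adjusted p = 0.00578) and 4.03 higher in fossa (adjusted p = 0.003). Col6a1 of the beaded filaments that biglycan binds was 3.41 higher in condyle (SE 0.38, adjusted p = 0.00253), and Col1a1 was 2.86 higher in fossa (adjusted p = 0.0152). Between condyle and fossa, Col12a1 (1.27, SE 0.31, adjusted p = 0.032) and Col6a3 (1.09, SE 0.26, adjusted p = 0.0292) were higher in condyle, with a list median of -0.02. Under quantile normalization 7 were higher in condyle and 8 in fossa than in whole body, and none was called between condyle and fossa.

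Enzymes that build the sugar chains changed in part. Of 5 measured linker enzymes, Fam20b, the kinase of the linker xylose, was 1.34 higher in condyle than in whole body (SE 0.24, adjusted p = 0.0143) and none passed in the other comparisons. Of 15 chondroitin and dermatan sulfate enzymes, 3 were higher in condyle than in whole body, namely the sulfotransferases Chst15 (2.34, SE 0.52, adjusted p = 0.0283), Chst11 (2.25, adjusted p = 0.026) and Chst14 (1.67, adjusted p = 0.0294). In fossa Chst11 was 1.72 higher (adjusted p = 0.048), Csgalnact2 differed by -1.58 (adjusted p = 0.0329) and Chst12 was at least 1.20-fold lower (adjusted p = 0.0148). Dsel, a dermatan sulfate epimerase, was 1.57 higher in condyle than in fossa (SE 0.24, adjusted p = 0.00631), as was Chst14 by 1.49 (adjusted p = 0.0337). The medians were 0.24, -0.07 and 0.48 in the 3 comparisons. Of all genes, 9.34%, 3.99% and 16.8% were higher in the same order. Under quantile normalization Fam20b was no longer called, none of the 15 chain enzymes was called in condyle against whole body, Chst11 (higher) and Chst12 (lower) were called in fossa, and Chst12 alone was higher in condyle than in fossa.

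Of 14 keratan sulfate, sulfate donor and tyrosine sulfation genes, 3 were higher in condyle than in whole body and none lower, 1 was higher and 5 lower in fossa, and 6 were higher and none lower in condyle than in fossa. Of all genes, 9.34%, 3.99% and 16.8% were higher and 3.84%, 15.6% and 2.13% lower in the same order. Of the calls in fossa B3gnt7 and Chst4, and of those between condyle and fossa B3gnt7, were not above background on any array, and without them 3 were lower in fossa and 5 higher in condyle than in fossa. The medians were 0.31, -0.12 and 0.52. Papss2, which makes the sulfate donor in cartilage, was 2.15 higher in condyle (SE 0.55, adjusted p = 0.0442) and 2.07 higher in fossa (adjusted p = 0.0382) than in whole body, and Papss1 was 1.85 higher in condyle (SE 0.27, adjusted p = 0.00677). Tpst1, an enzyme that sulfates tyrosines, differed by -1.13 in fossa from whole body (SE 0.15, adjusted p = 0.00341) and by 1.47 in condyle from fossa (adjusted p = 0.00195). Its relative Tpst2 was at least 2.86-fold higher in condyle than in fossa (adjusted p = 0.00331). Under quantile normalization the counts were 1 higher in condyle against whole body, 1 higher and 4 lower in fossa, and 2 higher in condyle against fossa, and without condyle array 3 and fossa array 3 the last count was 3.

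Among 13 proteases and enhancers that process the members, Mmp2, a gelatinase, was 3.52 higher in condyle (SE 0.38, adjusted p = 0.00227) and 2.28 higher in fossa (adjusted p = 0.00708) than in whole body. Pcolce2, a procollagen enhancer, was at least 5.14-fold higher in condyle (adjusted p = 0.0229) and at least 5.63-fold higher in fossa (adjusted p = 0.0136). Bmp1, the protease that cleaves the biglycan propeptide, was 1.23 higher in condyle than in fossa (SE 0.32, adjusted p = 0.0382). No other gene of this list passed, and the medians were 0.48, 0.04 and 0.03. Under quantile normalization the Bmp1 call was lost, and without condyle array 3 and fossa array 3 only Mmp2 was called in either tissue against whole body.

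Of 19 growth factors and receptors that members are known to bind, Lrp1, an endocytic receptor for decorin, was the only one called in condyle against whole body (1.16, SE 0.25, adjusted p = 0.026). Met was the only one in fossa (-1.77, SE 0.45, adjusted p = 0.0346). Between condyle and fossa 3 were higher and none lower, which lies near the 16.8% higher and 2.13% lower of all genes. They were Tgfbr1 at 1.62 (SE 0.37, adjusted p = 0.0257), Tgfb3 at least 2.29-fold (adjusted p = 0.018) and Bmp4 at least 1.39-fold (adjusted p = 0.0353). The medians were -0.04, -0.57 and 0.34. None of these 5 calls held under quantile normalization, and without condyle array 3 and fossa array 3 only that of Bmp4 did.

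For each member the genes whose pattern over the 9 arrays was most alike were found by the root mean square difference of centred log2 values, among 11502 genes above the limit on at least 3 arrays. These likenesses are descriptions, since the same arrays and tissue groups set every gene's pattern. Bgn was closest to Col6a2 and Mmp2 (0.27 each) and Slc44a2 (0.33), so 2 of its 3 nearest were genes of the lists above. Dcn was closest to Tfpi (0.33), B2m and Cav2 (0.37 each), Aspn to Ptprg (0.28), Bhmt2 (0.38) and Fcgr3 (0.41), and Ogn to Cd302 (0.39), Iqgap2 (0.42) and Mrc1 (0.44). Lum was closest to Slc10a7 (0.29), Fndc3b and C1galt1 (0.33 each), and Kera to Taok3 (0.44), Abcg2 (0.45) and Sdcbp (0.46). Prelp was closest to Emilin3 (0.43), Mfap4 (0.47) and Plod2 (0.52). Fmod and Omd had the most distant neighbours, with Aloxe3 (0.52), Cytl1 (0.54) and Nucb2 (0.60) for Fmod and Dpep1 (0.69), Ranbp3l (0.75) and Pik3r6 (0.80) for Omd.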

How the data were processed

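RNA of 9 laser-captured samples was hybridised to a 45101 probe set Affymetrix array. The authors deposited linear intensities, which run from 3.25 to 67158.9. Per the submitters' processing notes limma is named, in a role and version not stated, and the authors' background correction, normalization and probe summary are not given in the sources used here. A floor of 1 was set before taking log2. Of the probe sets, 34945 had 1 gene symbol, 932 several and 9160 none in the platform annotation, 64 were array controls, and symbols checked against a RefSeq table (GRCm38.p6) changed in 0 cases. A gene was shown by its probe set with the highest mean. The members and gene lists were chosen with earlier results of these data known.

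limma 3.58.1 in R 4.3.3 (lmFit, eBayes) fitted all 9 arrays in 3 groups, with 6 residual and 1.12 prior degrees of freedom. Adjusted p-values are Benjamini-Hochberg over 18193 genes or 45037 probe sets, with 0.05 as threshold. Probe sets or genes not above background in the dimmer group on every array, or on 1 or 2 of its 3 arrays, have folds given as "at least", computed against the larger of limit and measured value on each array. The number of arrays limits the precision. All members and their probe sets are named, with up to 3 called genes of largest difference from each other list and the 3 most alike genes per member. The alternatives were quantile normalization, median centring, a common floor, leaving out dim genes, the mean of all probe sets, only the compared groups, an intensity trend, the replicate number as a block, each array left out, and, added after seeing the data, leaving out condyle array 3 and fossa array 3, which had high Ttr. Counts of the other gene lists under these settings were also added after seeing the data. Figures were drawn with matplotlib 3.10.9 in Python 3.11.15.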

Additional observations from a re-analysis of the deposited data

Results flagged for a closer look

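The difference between condyle and fossa was itself tested, and 3 member values passed. Prelp was 2.57 higher in condyle than in fossa on the log2 scale as a gene, and 2.57 as its probe set 1416321_s_at in the fit over all probe sets (adjusted p = 0.00956 and 0.0105). The asporin probe set 1416652_at differed by -1.70 between condyle and fossa (adjusted p = 0.0343), while the brighter asporin probe set differed by -0.81 (adjusted p = 0.252). The asporin call held in 3 of the 9 fits that each left out an array and in 4 of 8 other settings, and the Prelp probe set call in all 9 and in 7 of 8, with an adjusted p of 0.0503 under the common floor.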

How the results depend on the processing

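Whether the replicate numbers pair the samples is not given in the labels. Deviations of same-numbered arrays correlated at -0.33, -0.44 and 0.15 between condyle and fossa, -0.02, 0.09 and 0.03 between condyle and whole body, and 0.08, -0.05 and 0.06 between fossa and whole body. Other-numbered condyle and fossa arrays correlated at -0.17 to 0.44. These values cannot decide whether arrays were paired, because the deviations of 3 arrays from their own mean depend on each other. With the replicate number as a block, members called fell to 2 in condyle against whole body and 1 in fossa against whole body, probe sets called to 2 in fossa against whole body and 1 in condyle against fossa, and genes called were 1691, 2779 and 2537 in the 3 comparisons; adjusted p was 0.0736 for Ogn and 0.0717 for Aspn in condyle, and 0.0658 for Kera and 0.088 for Ogn in fossa. Quantile normalization gave 1176 genes called between condyle and fossa, 691 higher and 485 lower, and turned Lum in fossa against whole body to 0.18, Dcn in condyle against fossa to -0.56 and Lum there to -0.57. Genes called higher were 50.5%, 47.1% and 58.8% of calls under it and 78.8%, 44.7% and 83.2% under median centring, against 70.9%, 20.4% and 88.8% as deposited. A common floor gave 1893 genes called in fossa against whole body and 1823 in condyle against fossa, and 3, 1 and 0 member probe sets in the 3 comparisons, and fitting only the compared groups left 1 between condyle and fossa. Without condyle array 3 and fossa array 3 together, genes called were 1191, 2049 and 1231, members called were 2 in condyle and 1 in fossa against whole body, probe sets called were 3 in fossa against whole body and 4 in condyle against fossa, Lum was 0.28 in condyle against whole body and Ogn 0.16 in condyle against fossa. Aspn lost its call under median centring (0.0658), the common floor (0.0785) and only the compared groups (0.0663). With each array left out, genes called ranged from 1470 to 2591, 2343 to 3352 and 2086 to 3515, members called from 2 to 4, 1 to 3 and 1 to 2, and probe sets called from 4 to 6, 2 to 6 and 1 to 6. The values that crossed 0 were Dcn between condyle and fossa (-0.35 to 0.73), Lum in condyle against whole body (-0.96 to 0.28) and between condyle and fossa (-0.55 to 0.69), Fmod (-1.36 to 0.40) and Ogn (-0.89 to 0.09) between condyle and fossa, and Omd in condyle against whole body (-1.09 to 0.07); the cause was not tested. In the gene fit, biglycan against whole body in both tissues and Prelp in condyle against both kept their calls under every alternative run. In the probe set fit the common floor ended the calls of Prelp 1416321_s_at against whole body and fossa (0.053 and 0.0503) and, in fossa, of Bgn 1437889_x_at (0.109) and Bgn 1448323_a_at (0.123), which the block ended too (0.0676 and 0.0859). Groups of 3 limit the precision, and values near the background limit have little room to fall.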
